A study of Mus musculus with 6 samples.

Results

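Lipid-associated macrophages (LAM) were studied in subcutaneous white adipose tissue of obese mice by single-nucleus RNA sequencing. A barcode counted as a macrophage when it had at least 500 detected genes, at most 5% mitochondrial transcripts and at least 3 detected genes of Adgre1, Csf1r, Mctp1, Mertk, Cd68, C1qa, C1qb and Mrc1. It counted as LAM when at least 2 of the 5 genes Atp6v0d2, Gpnmb, Mmp12, Trem2 and St18 (the L genes) were detected, and more of them than of the resident-type genes Cd163, F13a1, Cd209f, Cd209g and Fcna and of the monocyte-type genes Fcrls, Lyz1, Retnla, Ccr2 and Cd226. Detected means at least 1 unique molecular identifier (UMI, a counted transcript molecule). This rule found 2682 LAM among 65162 barcodes, of which 61496 passed the limits on genes and mitochondrial transcripts and 11002 were macrophages. The other 8320 macrophages included 4122 in which the resident-type genes led (V-type) and 1077 in which the monocyte-type genes led (M-type), by the mirrored rule.

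LAM are macrophages of obese adipose tissue that gather around dying adipocytes, take up the lipid these release and break it down in lysosomes. Their program depends on Trem2, a surface receptor for lipids and lipoproteins. Among the other L genes, Atp6v0d2 encodes a subunit of the vacuolar proton pump (V-ATPase) that acidifies lysosomes, Gpnmb a glycoprotein of lysosomal membranes, Mmp12 the macrophage elastase and St18 a zinc-finger transcription factor.

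The 6 libraries came from 2 groups of 3 mice, all made obese with high-fat food. Their labels state 12 weeks of it, and the protocol a span of 5 to 12 weeks that began when the mice were 7 weeks old. The flox control group was GPSM1f/f, with a floxed Gpsm1 gene, and the Treg knockout group was GPSM1ΔTreg, in which the name of the genotype places the deletion in regulatory T cells. The Cre driver is not given in the sources used here. The kept nuclei of a library held 43991302 to 54642690 UMIs in the controls and fewer, 37614710 to 41447347, in the knockouts. LAM of controls 1, 2 and 3 held 4391337, 3384244 and 2283137 UMIs against 381949, 1360037 and 599718 for LAM of knockouts 1, 2 and 3, so the knockout sums are the less precise ones. Any pair of libraries shared 24 to 39 kept barcodes, and 1 LAM barcode was shared over the 15 pairs.

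The L genes lie at chr4:19876841-19922605 (Atp6v0d2, minus strand), chr6:49036546-49070929 (Gpnmb), chr9:7344381-7369499 (Mmp12), chr17:48346401-48354147 (Trem2) and chr1:6487231-6860940 (St18), the last 4 on the plus strand, in GENCODE vM21 on mm10. RefSeq promoter sequences were at hand for Gpnmb, Trem2 and Mmp12, and they are shown because these genes define LAM and were detected together. The 250 bases before a RefSeq start (GRCm38.p6, plus strand) are given 5′ to 3′, with matches to 4 motifs in capitals on either strand: AP-1 (TGACTCA), the M-box (TCATGTG), an E-box (CACGTG) and the PU.1 core (GAGGAA).

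Gpnmb, chr6:49036268-49036517: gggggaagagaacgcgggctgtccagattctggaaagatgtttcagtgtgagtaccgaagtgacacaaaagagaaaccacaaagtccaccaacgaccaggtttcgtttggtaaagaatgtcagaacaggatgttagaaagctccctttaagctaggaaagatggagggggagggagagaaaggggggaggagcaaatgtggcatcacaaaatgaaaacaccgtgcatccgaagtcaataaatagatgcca

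Trem2, chr17:48346151-48346400: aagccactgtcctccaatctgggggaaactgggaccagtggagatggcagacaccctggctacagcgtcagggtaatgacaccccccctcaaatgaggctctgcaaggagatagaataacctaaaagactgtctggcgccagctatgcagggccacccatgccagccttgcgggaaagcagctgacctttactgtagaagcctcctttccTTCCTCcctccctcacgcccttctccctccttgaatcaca

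Mmp12, second listed start, chr9:7347124-7347373: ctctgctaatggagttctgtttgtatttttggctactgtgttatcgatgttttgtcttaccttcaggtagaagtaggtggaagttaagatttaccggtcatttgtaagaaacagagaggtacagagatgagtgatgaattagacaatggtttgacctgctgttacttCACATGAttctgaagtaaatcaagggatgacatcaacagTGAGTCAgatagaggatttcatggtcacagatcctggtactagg

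RefSeq lists 2 starts for Mmp12. The window of the first, chr9:7344147-7344396, held a PU.1 core 86 bases before the start, and the window of the second, shown here for its 2 motifs, lies within the gene body. The latter held an M-box that begins 83 bases before the start and an AP-1 site 44 bases before it. The Trem2 window held a PU.1 core 40 bases before the start, and the Gpnmb window none of the 4 motifs. Of all 32851 promoters of this length, 4.46% held AP-1, 3.25% the M-box, 6.02% the E-box and 23.3% the PU.1 core, so a PU.1 core match is common. Counted by gene, since a gene can have several starts, these shares were 5.16, 3.72, 6.86 and 25.9%. Among the 18 matched genes of the 25 that lead in LAM, 2 held AP-1, 7 the PU.1 core and 0 the M-box or E-box. A match describes letters and not a bound factor.

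The L genes chose the nuclei, and their levels are a description. Atp6v0d2 was detected in 83.9% of LAM, St18 in 79.4%, Trem2 in 70.8%, Gpnmb in 61.3% and Mmp12 in 46.6%. In the 50494 kept nuclei outside the macrophage rule these shares were 1.86, 1.58, 1.98, 9.08 and 4.49%, at a median of 2647 UMIs against 3712 in LAM. Of the 2682 LAM, 629 carried just 2 L genes, 784 carried 3, 785 carried 4 and 484 all 5. Atp6v0d2 with St18 was the commonest pair among those with 2, in 177 nuclei. Just outside the rule, 2118 other macrophages had 1 L gene and 404 had at least 2 that were matched or outnumbered by a competing set.

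The label was checked on 10 LAM genes that the rule did not use. Cd9, Spp1, Lpl, Lipa, Fabp5, Itgax, Ctsl, Plin2, Lgals3 and Cd36 were all higher in LAM than in the other macrophages of the same library, in 6 of 6 libraries. Levels here are CPM, the UMIs of a gene summed over the nuclei of a class and scaled to a common total of UMIs. Lipa, the lysosomal acid lipase that frees fatty acids from stored lipid, had a mean of 641 CPM in LAM and 139 CPM in the other macrophages. Plin2, a coat protein of lipid droplets, had 1249 and 349 CPM, and Cd36, a fatty acid receptor, 4329 and 1852 CPM. Spp1 (osteopontin) stayed low, at 30.1 CPM in LAM. Fabp4 and Apoe, which are also known from LAM, went the other way in 6 of 6 libraries, Fabp4 with 1146 against 1635 CPM and Apoe with 959.5 against 1765 CPM.

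Several of the genes with the largest ratios between LAM and other macrophages are described here. Log2 ratios below are of LAM over other macrophages within a library, with 5 CPM added, as the median over 6 libraries, and carry no test because LAM were chosen from the same nuclei. The largest was that of Efr3b, a membrane anchor of a phosphatidylinositol kinase complex, at 4.55 (4.15 to 5.30 over the libraries). Fat3, an atypical cadherin, followed at 4.52. Rgs1, which shuts off G-protein signalling, reached 3.87, and the cytokine receptor gene Il7r 3.47.

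The endoplasmic reticulum gene Wfs1 had a ratio of 3.45 and Ctsk, the collagen-cutting cathepsin K of osteoclasts, 3.44, with 208 CPM in LAM and 13.5 CPM in other macrophages. The adhesion gene Cadm1 (914 against 88.9 CPM), the galectin gene Lgals3 (1455 against 142 CPM) and the motor gene Myo1e (1793 against 213 CPM) were also among the 25 leading genes. So were Igf2bp2 and Hmga2, an RNA-binding protein and a chromatin protein, at 3.29 and 3.22. Genes lowest in LAM were those of resident macrophages: Cd209b at -4.24, the hyaluronan receptor gene Lyve1 at -3.87, the endothelin receptor gene Ednrb at -3.84 and Timd4, a receptor for dying cells, at -3.23.

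**Figure D1:**
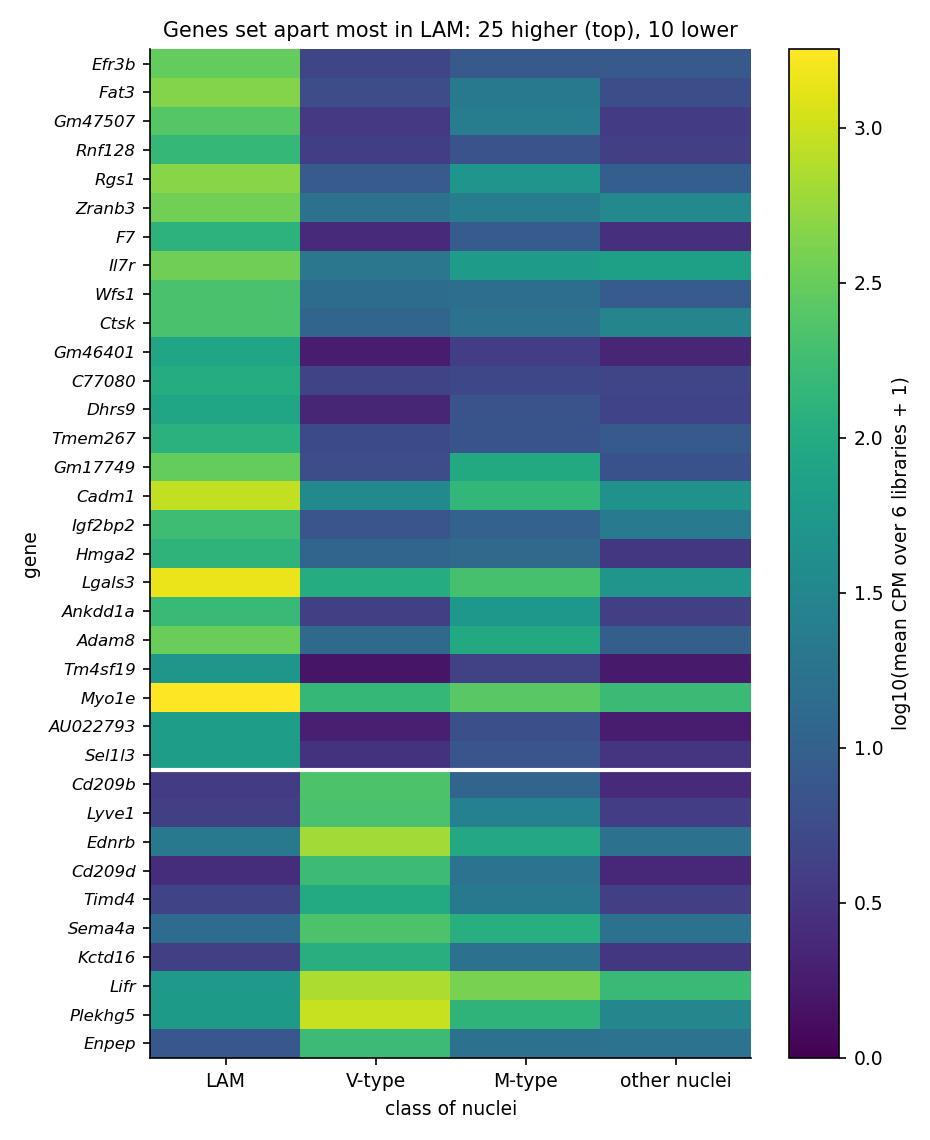
Mean level over the 6 libraries of the 25 genes with the largest and the 10 with the lowest ratio of LAM over other macrophages, as log10(CPM + 1), in LAM, V-type and M-type macrophages and nuclei outside the macrophage rule (other nuclei). The upper genes are bright in the LAM column, as with Cadm1 at 914 CPM against 34.4 CPM in V-type, and the lower genes are bright in the V-type column, as with Lyve1 at 205 CPM against 3.19 CPM in LAM.

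Most lysosomal genes were higher in LAM than in the other macrophages. All 17 further V-ATPase subunit genes were higher in LAM in 6 of 6 libraries, with a median log2 ratio of 0.56, and 22 of 30 lysosomal hydrolase and membrane genes were higher and 2 lower, with a median of 0.61. Over all 11354 genes tested outside the rule, 2535 were higher in 6 of 6 libraries and 2185 lower, with a median of 0.04. Among the pump genes, Atp6v1b2 and the osteoclast pump gene Tcirg1 both reached 2.01. Among the hydrolases, the cathepsin genes Ctsl and Ctsd reached 2.62 and 2.11, while Ctsc, a cathepsin that activates serine proteases, was at -2.17. Not all lysosomal genes exceeded their V-type level. The membrane gene Lamp2 had 411 CPM in LAM and 451 CPM in V-type macrophages, while Ctsl had 1200.3 and 213 CPM.

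Transcription factor genes of lysosome formation were uneven. Mitf had 2089 against 992 CPM and Tfeb 169.5 against 84.3 CPM, both higher in 6 of 6 libraries, while Tfe3 had 44.8 against 41.5 CPM. Tfec had 38.5 against 50.3 CPM and was higher in LAM in 1 of 6 libraries. Of 17 osteoclast and cell fusion genes 12 were tested, and genes low in LAM were among those left out. Of these 12, 9 were higher in 6 of 6 libraries, among them the fusion gene Dcstamp (1.57) and the RANK receptor gene Tnfrsf11a (1.30). The osteoclast factor gene Nfatc1 was the 1 lower in 6 of 6 libraries, with 63.8 against 104 CPM. Mmp9, too low in LAM to test, had 1.14 against 23.5 CPM. Dcstamp was not particular to LAM, with 46.7 CPM in LAM, 53.3 CPM in M-type and 1.05 CPM in V-type macrophages. Of 17 lipid uptake and storage genes, 9 were higher and 6 lower. The cholesterol-esterifying enzyme gene Soat1 led at 1.97, and the triglyceride synthesis gene Dgat2, which adipocytes express strongly, was at -1.0.

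Antigen presentation and resident genes were lower in LAM. Of 12 MHC class II presentation genes 10 were lower in 6 of 6 libraries (median -0.68), with 510.2 against 845 CPM for H2-Aa. Against V-type macrophages alone, mean H2-Aa was 487 and 574 CPM in controls and 534 and 718 CPM for knockouts. Summed dendritic cell markers were 38.2 to 90.0 CPM in LAM and 159 to 293 CPM in the other macrophages, where B cell markers summed to 404 to 2141 CPM. The part of such transcripts was not tested. Of 13 alternative activation and resident genes 10 were lower (median -0.98) and Arg1, arginase 1, was the 1 that was higher, at 21.2 against 2.26 CPM. Among the inflammatory genes the interleukin-1 antagonist gene Il1rn was higher (32.8 against 2.45 CPM), and Il1b was close to 0 in both classes (1.08 and 1.72 CPM).

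Several genes outside the rule rose or fell with the number of L genes detected. Macrophages with at most 1 resident-type and at most 1 monocyte-type gene were grouped by the number of L genes detected, and 14 genes were followed, all but Mrc1 outside the rule. The median CPM of Lgals3 over the 6 libraries was 105, 256, 770, 1168, 1474 and 2136 with 0, 1, 2, 3, 4 and 5 L genes. From 0 to 5 L genes Ctsk went from 7.84 to 379.5 CPM and Efr3b from 5.99 to 444 CPM, higher at each step. Lifr, the receptor gene for leukemia inhibitory factor, went from 261 to 29.8 CPM. Lpl, the lipoprotein lipase gene, behaved differently, with 1150 CPM at 1 L gene, 2138 CPM at 2 and 2164 CPM at 5. Across the edge of the rule, from 1 to 2 L genes, Efr3b went from 24.3 to 113 CPM and Lyve1 from 21.6 CPM to 0. Deeper nuclei detect more genes, and LAM had a median of 3443 to 4501 UMIs per library against 2375.5 to 3147 in the other macrophages. Neither the part of depth nor that of a mixture of cell states in these values was tested.

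**Figure D2:**
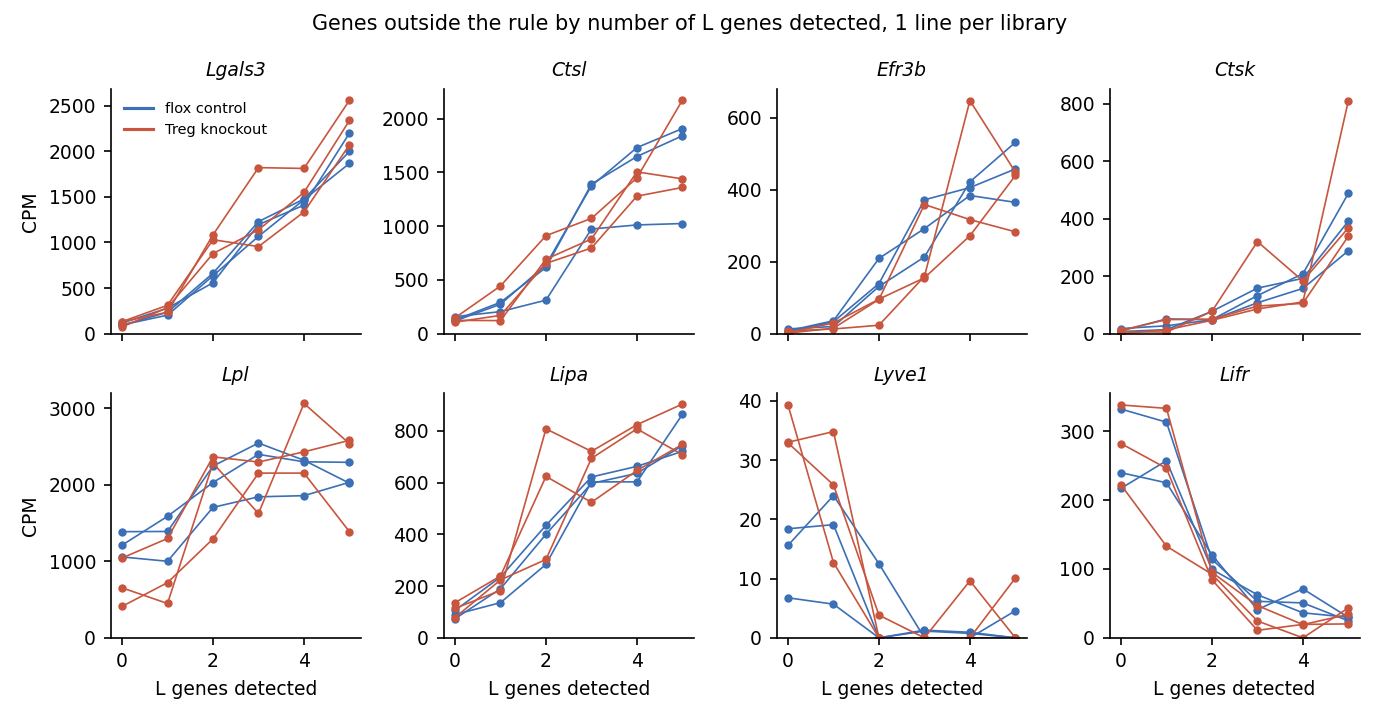
CPM of 8 genes outside the rule (vertical axes) against the number of L genes detected in a nucleus (horizontal axes), for macrophages with at most 1 resident-type and 1 monocyte-type gene, with 1 line per library, blue for flox control and red for Treg knockout. Lgals3, Ctsl, Efr3b, Ctsk and Lipa are higher with 5 L genes than with 0 in each library, Lpl levels off from 2 L genes on, and Lyve1 and Lifr are low where 4 or 5 L genes are detected.

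Cell division genes were also higher in LAM. All 18 division genes tested were higher than in the other macrophages in 6 of 6 libraries, with a median log2 ratio of 1.78. Top2a, the topoisomerase of dividing cells, had 73.9 against 13.1 CPM and the proliferation marker gene Mki67 57.0 against 11 CPM. Nuclei were called division-positive when at least 2 of 20 division genes were detected after each was thinned to 2000 UMIs, which left out 324 LAM and kept 2358. The share was 13.5, 16.9 and 10.1% of LAM in controls 1, 2 and 3 against 15.2, 11 and 11.8% of knockout LAM, and 2.08 to 4.08% of the other macrophages. In every library LAM were above the other macrophages, and the genotypes overlapped (13.5 ± 3.4% against 12.6 ± 2.22%, SD, n = 3, exact two-sided permutation p = 0.7). Without thinning the means were 18.4 and 14.7%. The rule used no division gene, but a call from 2 detected genes can also arise from free RNA or doublets, and their part was not tested.

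The study compared the 2 genotypes, and LAM made up a smaller part of the knockout libraries. They were 35.0, 29.7 and 23.5% of macrophages in controls 1, 2 and 3 against 8.31, 20.5 and 10.0% for the knockouts. All controls were above all knockouts, and knockout 2 lay closest to the controls. The means were 29.4 ± 5.73% and 12.9 ± 6.59% (SD, n = 3), a difference of -16.5 percentage points with an exact two-sided permutation p of 0.1. This is the smallest p that 3 against 3 libraries can give, so this design cannot pass 0.05. Exact 95% binomial intervals, which cover counting error only, ran from 21.7 to 25.4% in the lowest control and from 18.5 to 22.5% in the highest knockout.

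As a share of all kept nuclei, LAM were 9.07, 7.65 and 4.58% in controls against 0.645, 3.17 and 1.38% for knockouts. The means were 7.1 ± 2.29% and 1.73 ± 1.30% (SD, n = 3, exact permutation p = 0.1), and again the groups did not overlap. This share also moves with macrophages as a whole and with other cell types. All macrophages together were 25.9, 25.8 and 19.5% of kept nuclei in controls against 7.76, 15.5 and 13.7% for knockouts, without overlap. Their means were 23.7 ± 3.68% and 12.3 ± 4.05% (SD, n = 3, exact permutation p = 0.1). Nuclei with at least 3 B cell markers were 2.96, 1.82 and 10.1% of kept nuclei in controls against 44.5, 14.4 and 29.4% for knockouts. With B and T cell marker nuclei left out of the total, the mean LAM shares were 7.54 and 2.53%. Per 100 V-type nuclei there were 121, 75.5 and 77.4 LAM in controls against 17.5, 49.8 and 20.1 for knockouts. Because LAM are called by detection, fewer LAM and lower L gene levels per nucleus cannot be told apart from these shares.

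**Figure D3:**
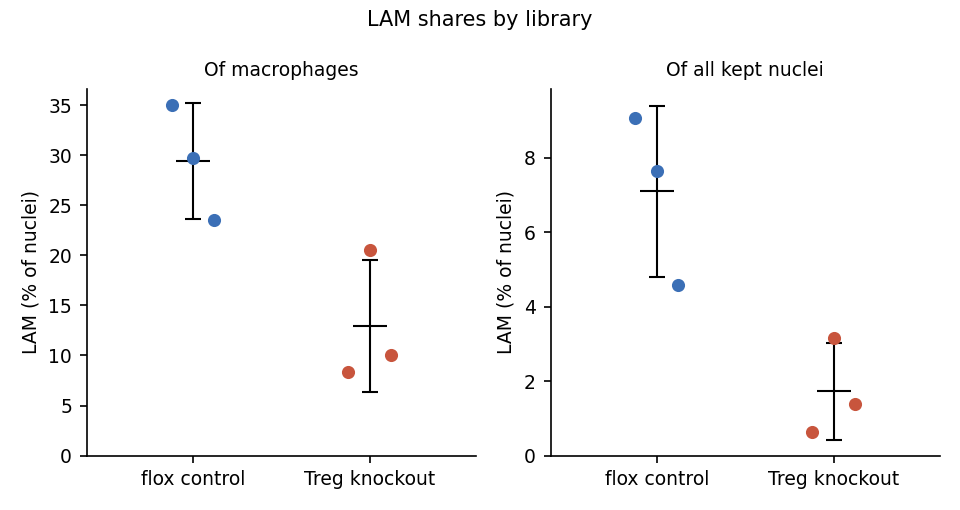
LAM as percent of macrophages (left) and of all kept nuclei (right) in each library, in blue for flox control and red for Treg knockout, with bars for the mean ± SD of 3 libraries. The control points lie at 23.5% and above on the left and the knockout points at 20.5% and below.

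As parts of one total, the remaining classes must together take the share that LAM do not. V-type nuclei were 28.9, 39.4 and 30.4% of macrophages in controls against 47.5, 41.1 and 49.9% for knockouts, and M-type nuclei 7.86 ± 2.06% and 14.1 ± 3.04% (SD, n = 3, exact permutation p = 0.1 for each). Macrophages of no class were 26.4, 25.3 and 37.8% in controls against 26.9, 27.0 and 26.7% for knockouts, which overlap. Macrophages with exactly 1 L gene were 32.7, 28.5 and 28.7% of the other macrophages in controls against 17.1, 21.8 and 16% for knockouts, also without overlap. Within LAM, Trem2 had 383, 334 and 251 CPM in controls against 416, 329 and 243 CPM for knockouts, and Gpnmb 1379.8, 1180.2 and 1264 CPM against 1699, 1123 and 1329 CPM. St18 had 903, 859 and 866 CPM against 1029, 937 and 1004 CPM, with all knockouts above all controls, while the other 4 L genes overlapped. The mean of Atp6v0d2 was 1103 CPM in controls and 1332 CPM for knockouts, and that of Mmp12 was 857 and 942 CPM. These levels are partly set by the rule and were not tested.

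The genes that LAM of the 2 genotypes expressed were then compared on UMIs summed over LAM per library, with edgeR's quasi-likelihood test and Benjamini-Hochberg adjustment over 11375 genes. Few genes passed at an adjusted p under 0.05: 3 were lower in the knockouts (0.0264% of those tested) and 0 higher. At an unadjusted p under 0.05, 505 genes (4.44%) were lower and 321 (2.82%) higher, and DESeq2 called 32 lower (0.281%) and 2 higher (0.0176%). In 920 genes (8.09%) all knockouts lay below all controls and in 754 (6.63%) above.

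Fgf13, an intracellular fibroblast growth factor homolog that binds sodium channels and microtubules (chrX:59062145-59568071, minus strand), had 582, 552 and 403 CPM in control LAM against 149, 149 and 213 CPM in knockout LAM. The highest knockout was far below the lowest control, with a log2 fold change of -1.59 (SE 0.182, edgeR adjusted p = 0.0268). The other macrophages had 99.8, 101 and 94.9 CPM in controls against 43.2, 70.0 and 115 CPM for knockouts, which overlap. Outside the macrophage rule it had 141, 197 and 185 CPM in controls against 258, 187 and 198 CPM for knockouts, so it was lower there than in control LAM. Among nuclei with 4 L genes its mean was 618 ± 108 CPM (SD, n = 3) for controls against 156 ± 93.1 CPM for knockouts, without overlap, and the same held for 1, 2 and 5 L genes, but not for 0 or 3.

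Sorbs2, an adaptor of the actin cytoskeleton (chr8:45507788-45827906, plus strand), had 57.8, 71.2 and 82.3 CPM in control LAM against 2.62, 10.3 and 11.7 CPM in knockout LAM (log2 fold change -2.91, SE 0.296, edgeR adjusted p = 0.00853). Dach1, a transcriptional cofactor (chr14:97786853-98169765, minus strand), had 55.1, 74.8 and 71.4 CPM against 15.7, 19.9 and 16.7 CPM (log2 fold change -1.88, SE 0.22, edgeR adjusted p = 0.0177). The other macrophages had 265, 174 and 121 CPM of Sorbs2 in controls against 35.3, 88.0 and 27.0 CPM for knockouts, and 61.9, 35.4 and 77.3 CPM of Dach1 against 21.6, 34.7 and 24.6 CPM, so control Dach1 overlapped between LAM and other macrophages. In nuclei outside the macrophage rule Sorbs2 had 543, 370.2 and 295 CPM in controls against 165, 175 and 153 CPM for knockouts, and Dach1 114, 93.3 and 144 CPM against 37.9, 61.2 and 51.3 CPM, again with no overlap.

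**Figure D4:**
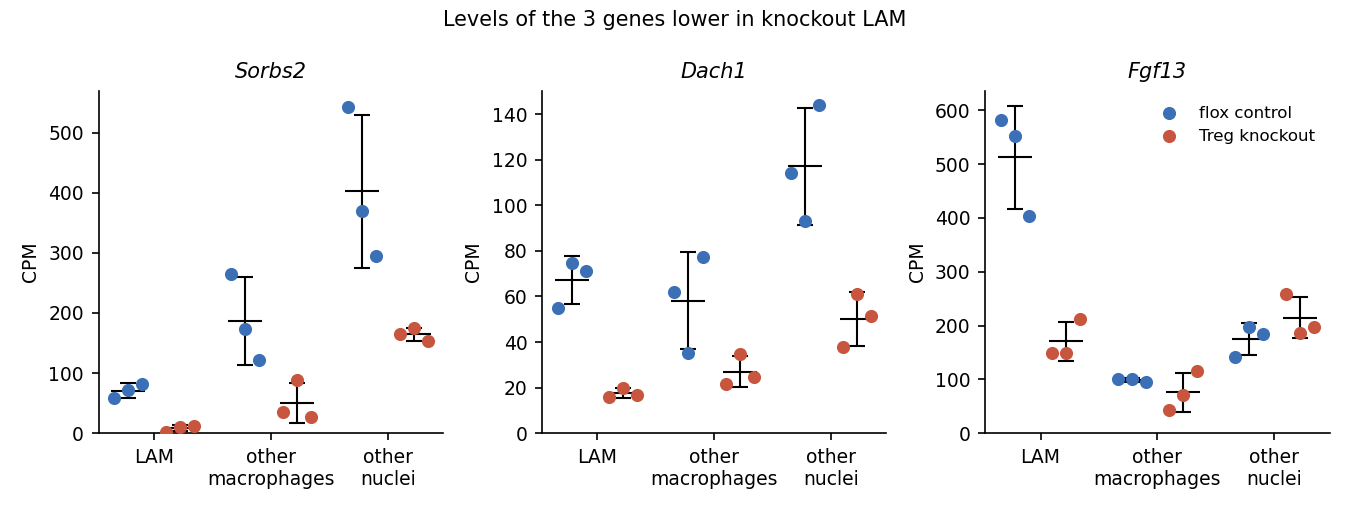
CPM of Sorbs2, Dach1 and Fgf13 in LAM, other macrophages and nuclei outside the macrophage rule (other nuclei), with 1 point per library, blue for flox control and red for Treg knockout, and bars for the mean ± SD of 3 libraries. In other nuclei both Sorbs2 and Dach1 lie above their levels in LAM of the same control library, with all knockouts below all controls, while Fgf13 is highest in control LAM, at 403 to 582 CPM.

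Each of these calls rests on few libraries. Without flox control 2 the edgeR adjusted p was 0.0595 for Sorbs2, 0.0929 for Dach1 and 0.0929 for Fgf13, and without Treg knockout 3 it was 0.0673, 0.183 and 0.0673. Leaving out Treg knockout 2 also ended all 3 calls (0.0736, 0.0764 and 0.0784) and leaving out Treg knockout 1 those of Dach1 (0.0708) and Fgf13 (0.245), while the log2 fold changes stayed within -3.11 to -2.70, -2.03 to -1.80 and -1.79 to -1.48 over the alternatives run. With the highest doublet scores removed, Sorbs2 and Dach1 had edgeR adjusted p of 0.839 and 0.723 and Fgf13 0.0376. Among LAM of 1000 to 6000 UMIs, Dach1 had 0.142 and Fgf13 0.692. Without nuclei that carry markers of other types, Dach1 had 0.0779 and Fgf13 2.12e-06, and Sorbs2 was too low to test in either of these subsets. With at least 3 L genes required, Sorbs2 had an edgeR adjusted p of 0.0573.

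The 7 genes of next lowest p, which did not pass, were all lower in the knockouts: Prickle2, Prkg1, Plpp3, Tln2, Ank2, Pdgfd and Tmem45b had log2 fold changes of -2.04, -0.99, -0.89, -0.93, -0.84, -0.94 and -0.93 with edgeR adjusted p from 0.0673 to 0.135. In the other macrophages the log2 fold changes of these 7 genes were -1.12, -0.43, -0.95, -1.40, -0.24, -1.46 and -1.12, in the same order. Prickle2, Tln2, Pdgfd and Tmem45b passed there (edgeR adjusted p from 0.0141 to 0.0194). All 7 had higher mean levels outside the macrophage rule than in LAM, as with Pdgfd at 838 against 139 CPM in controls. Markers of other cell types were also detected in LAM. Of the summed levels given here, the groups overlapped for all but the markers of adipose stem and progenitor cells. The summed level of 10 adipocyte markers in LAM was 3409.7 to 4927 CPM in the controls and 2121 to 4554 CPM in the knockouts, and of 10 markers of adipose stem and progenitor cells 786 to 1086 CPM and 212 to 687 CPM. At least 3 adipocyte markers were detected in 33.4, 20.9 and 48.1% of control LAM and 15.9, 17.5 and 24.1% of knockout LAM. All 20 of these markers had UMIs in LAM. The 10 B cell markers summed to 99.9 to 375 CPM in the controls and 253 to 784 CPM in the knockouts, T cell markers to 20.4 to 32.6 and 24.3 to 167 CPM. The neutrophil gene Ly6g was at 0. The part of these transcripts in the results was not tested.

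The genes that LAM are known for did not pass in the genotype test. Lpl had 2347, 2277 and 1841 CPM in control LAM against 2372, 2371 and 1657 CPM in knockout LAM (log2 fold change -0.01, SE 0.148, edgeR adjusted p = 1.0). Cd36, Plin2 and Lipa had log2 fold changes of 0.04, 0.19 and 0.20 with SE of 0.0978, 0.0974 and 0.124. Cd9 was at -0.14 (SE 0.308), Fabp5 at -0.01 (SE 0.232) and Itgax at -0.08 (SE 0.22), and the direction of these 3, of Lpl, Cd36 and Spp1 changed sign under some alternatives. Fabp4, the fatty acid carrier that adipocytes make in quantity, had 1327, 1166 and 1844 CPM against 759, 749 and 1030.5 CPM, without overlap, at -0.77 (SE 0.191, edgeR adjusted p = 0.409, DESeq2 adjusted p = 0.0492). The lower Fabp4 level of knockouts was not particular to LAM, since the difference passed in the other macrophages (log2 fold change -0.85, SE 0.175, edgeR adjusted p = 0.0329). Within LAM its log2 fold change ran from -0.97 to -0.19 over the alternatives run. Spp1 varied most between libraries, with 26.9, 49.1 and 13.6 CPM against 5.24, 75.7 and 10.0 CPM.

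Gpsm1, the floxed gene, was low in LAM, with 13.2, 20.4 and 21.0 CPM in controls against 13.1, 15.4 and 10.0 CPM for knockouts (log2 fold change -0.42, SE 0.313, edgeR adjusted p = 0.840). A deletion in Treg cells is not checked by LAM. Of the genes that make or sense adenosine, the ATP-cleaving enzyme gene Entpd1 had 301, 282 and 283 CPM against 359, 294 and 333 CPM (0.17, SE 0.105, edgeR adjusted p = 0.779) and the receptor gene Adora2b a log2 fold change of 0.11 (SE 0.402). Nt5e, Adora2a and Adora3 were too low to test, at 2.71, 4.38 and 0.0730 CPM over the 6 libraries.

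None of the 17 gene lists had a gene that passed in edgeR in either direction, beside 3 of 11375 genes overall. The lists describe LAM of both genotypes and were chosen with results of these data known. In the V-ATPase list 15 of 17 genes had a positive log2 fold change, with a median of 0.15, 0 of them under an unadjusted p of 0.05. Of the lysosomal genes 24 of 30 were positive (median 0.19, 2 under an unadjusted p of 0.05, among them Ctss at 0.31), and of the cell division genes 17 of 18 (median 0.28, 2 under an unadjusted p of 0.05). The median over all genes tested outside the rule was 0.01, with 5810 of 11354 positive. In the other macrophages the V-ATPase, lysosomal and cell division medians were similar, at 0.12, 0.15 and 0.21, beside 0.03 over all genes.

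Lipid uptake and storage genes had a median of 0.03, with 9 of 17 positive. MHC class II genes had 0.23 (10 of 12 positive), with the largest values for H2-DMb2 (1.39) and H2-Ob (1.27), which B cells express and which did not pass. The B cell markers summed to 99.9 to 375 CPM in control LAM and 253 to 784 CPM in knockout LAM, and H2-Aa outside the macrophage rule had a mean of 65.2 CPM in controls and 291 CPM for knockouts. Their part in this median was not tested. Resident genes had -0.08 (6 of 13), interferon response genes 0.15 (7 of 10), inflammatory genes 0.05 (6 of 11) and matrix genes -0.05 (7 of 14). In the glycolysis and hypoxia list (median 0.11, 12 of 18 positive) 4 genes had an unadjusted p under 0.05, all higher, beside 2.82% of all tested genes higher and 4.44% lower at that p. One of them was Hif1a, the hypoxia factor, with 93.1, 88.4 and 98.1 CPM in controls against 126, 121 and 127 CPM for knockouts (0.42, SE 0.117, edgeR adjusted p = 0.446), a small and even difference without overlap that did not pass.

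Medians for the remaining lists were 0.10 for further LAM genes, 0.02 for cholesterol efflux, 0.08 for the MiT/TFE factors of lysosome formation, 0.12 for TREM2 signalling, 0.16 for osteoclast and fusion genes, -0.12 for adenosine genes and -0.04 for oxidative phosphorylation. DESeq2 called 1 gene lower in each of the LAM gene, lipid and matrix lists and 0 elsewhere. In the first 2 lists that gene was Fabp4 and in the third Sparc, a matrix protein gene named after its value was seen.

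**Figure D5:**
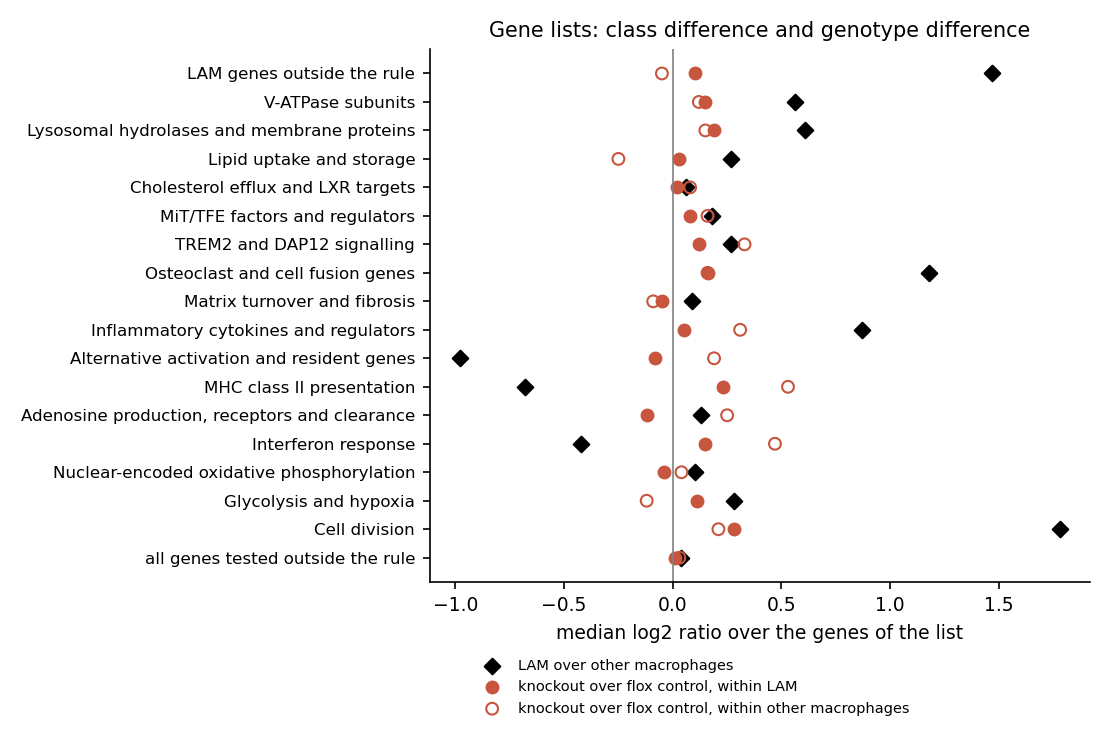
Median log2 ratio of each gene list (horizontal axis): LAM over other macrophages (black diamonds), knockout over flox control within LAM (filled red) and within the other macrophages (open red). The black diamonds reach from -0.98 for resident genes to 1.78 for cell division, while the filled red points lie between -0.12 and 0.28.

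In the other macrophages the genotypes differed in more genes, with 234 of 14177 (1.65%) higher and 713 (5.03%) lower in the knockouts by the same edgeR test. These sums held more nuclei, 761 to 1795 per library against 69 to 919 LAM. Of 640 such lower genes that were also tested in LAM, 569 were lower in knockout LAM too. Over all genes tested outside the rule, 5544 of 11354 were lower in knockout LAM. Whether the genotype difference in LAM was unlike that in the other macrophages was tested as an interaction with library as a block, over 14158 genes. It passed for 9 genes (0.0636%), 5 relatively higher in LAM (0.0353%) and 4 lower (0.0283%). Of the 3 genes called in LAM, Fgf13 was among them (interaction -1.20, SE 0.179, edgeR adjusted p = 0.0297), and Sorbs2 and Dach1 were not (-1.31 and -0.93, edgeR adjusted p = 0.733 and 0.558). Without nuclei that carry markers of other types, the Fgf13 interaction was 0.15, while its fall within LAM was still called.

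For Efr3b, the leading LAM gene, the larger log2 fold change was in the other macrophages, where its level was low. It had 350.2, 315 and 311 CPM in control LAM against 367, 219 and 247 CPM in knockout LAM (log2 fold change -0.27, SE 0.167). The other macrophages had 12.1, 9.82 and 12.8 CPM of Efr3b in controls against 4.46, 3.86 and 2.22 CPM for knockouts. There the log2 fold change was -1.79 (edgeR adjusted p = 0.0177). Outside the macrophage rule the mean of Efr3b was 10.1 CPM in controls and 3.97 CPM for knockouts. The other macrophages of the controls also held more nuclei with 1 L gene, as given above. Against V-type macrophages alone the Efr3b interaction was 1.14 with an edgeR adjusted p of 0.802. Lpl had an interaction of 0.86 (SE 0.149) that did not pass (edgeR adjusted p = 0.0521). Compared with V-type macrophages 1 gene passed in the interaction test (0.00782% of 12788), Asic2, an ion channel gene, at -2.65 (SE 0.299, edgeR adjusted p = 0.00236). Compared with M-type macrophages 2 genes passed (0.0208% of 9606), Fgf13 at -1.83 (edgeR adjusted p = 0.00823) and Tenm4, a gene for an adhesion protein of the teneurin family, at 1.05 (edgeR adjusted p = 0.0373).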

How the data were processed

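The authors deposited UMI counts per gene and barcode for 6 libraries, made with Cell Ranger 7.1 per the submitters' processing notes, which name mm10 and GRCh38. All 32285 genes are mouse genes, and 99.8% of their identifiers are in GENCODE vM21. Per the labels' protocols, DAPI-sorted nuclei from a sucrose gradient went into 10x 3′ libraries. The sources used here do not state whether introns were counted, how barcodes were filtered later or which Gpsm1 exons were removed. Intron counting would raise long genes. The labels give 3 mice per genotype.

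Counts were summed per library over LAM and over other macrophages and tested with edgeR 4.0.16 in R 4.3.3 (TMM, filterByExpr, robust quasi-likelihood), after the code was tested on simulated data, with DESeq2 1.42.0 as an alternative. The 23 genes of the rule got no reported test, although the written design counts 18. Shares were compared by exact permutation. Doublets were kept. Scrublet scores (scanpy 1.11.5) at a rate of 0.8% per 1000 barcodes served as an alternative.

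The members and lists were chosen with earlier results of these data known. Genes were named by rule: genes past the threshold with at least 20 CPM and no overlap, the 10 of lowest p, the 25 highest and 10 lowest LAM ratios, the 5 interaction genes of lowest p in each direction, the 3 most abundant genes of each list and a fixed set of LAM and adenosine genes. Others, such as Tcirg1, Soat1, Arg1, Il1rn, Hif1a and H2-DMb2, were chosen after their values were seen. Same-numbered libraries of the 2 groups did not deviate together (correlations of 0.063, 0.023 and 0.075), so they were not treated as pairs. Alternatives were other normalizations, no filter, stricter membership, depth limits, removal of doublets or of nuclei with markers of other types, and each library left out.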

Additional observations from a re-analysis of the deposited data

Results flagged for a closer look

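Besides Fgf13 and Efr3b, 7 genes had a genotype difference in LAM that differed from that in the other macrophages by edgeR's interaction test. The interaction is the knockout over flox log2 fold change in LAM minus that in the other macrophages. The Fgf13 value was -1.20 and the Efr3b value 1.48. Trhde, a peptidase gene, had an interaction of 1.90 (edgeR adjusted p = 0.0178), with 41.7, 46.7 and 31.5 CPM in control LAM against 10.5, 64.0 and 25 CPM in knockout LAM. Mical2, an actin-oxidising enzyme gene, had 1.14, Tenm4 0.99 and the protocadherin gene Pcdh7 0.83, each with an edgeR adjusted p of 0.0297. In the other macrophages these 4 genes had log2 fold changes of -2.09, -1.43, -0.78 and -1.29, of which that of Tenm4 did not pass (edgeR adjusted p = 0.112).

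The remaining genes went the other way. Tox, a nuclear factor gene of lymphocytes, had an interaction of -1.84, with a log2 fold change of -0.07 in LAM and 1.91 in the other macrophages. The latter did not pass (edgeR adjusted p = 0.0942), with 15.4, 13.8 and 19.5 CPM in controls against 35.0, 26.8 and 122 CPM for knockouts. Itgbl1 had -1.60, with 63.1, 75.9 and 99.4 CPM in control LAM against 5.24, 29.4 and 13.3 CPM in knockout LAM, and the non-coding gene 2610203C22Rik had -0.93. Removing the highest doublet scores ended all 9 calls, as did limiting LAM to 1000 to 6000 UMIs, both with fewer nuclei. Over the alternatives run, the Trhde interaction stayed between 1.34 and 2.83, that of Efr3b between 0.81 and 2.35 and that of 2610203C22Rik between -1.08 and -0.56. Those of Pcdh7, Mical2 and Tenm4 kept their sign with lowest values of 0.37, 0.40 and 0.40, and those of Fgf13, Tox and Itgbl1 changed sign under 1 alternative each. Macrophages with 1 L gene were 28.5 to 32.7% of the other macrophages in the controls and 16 to 21.8% in the knockouts, and B cell markers summed to 404 to 2141 CPM in the other macrophages, and the part of either in these values was not tested.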

How the results depend on the processing

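The share of LAM among macrophages was lower in the knockouts under all 11 alternatives (-20.2 to -10.0 percentage points) and that among kept nuclei under all 12 (-14.7 to -1.99), without overlap of the groups, and p cannot fall below 0.1. Thinned to 1000 UMIs, LAM were 16.6 and 6.54% of macrophages. The counts of changed genes depended on the processing, and the cause was not tested. In LAM, 0 genes were higher and 3 lower. These counts were 2 and 32 by DESeq2, and 78 and 234 with no filter on low counts. They were 1 and 1 without nuclei that carry other-type markers, 0 and 1 without the highest doublet scores and 0 and 0 at 1000 to 6000 UMIs, each with fewer nuclei. They ranged from 0 to 4 higher and 0 to 4 lower with a library left out. With the replicate number as a block they were 11 and 28. The numbers did not pair the libraries, and flox control 2 did not correlate best with its own number.

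Interaction counts of 5 higher and 4 lower became 15 and 8 by DESeq2, 188 and 150 with no filter, 11 and 7 with at least 3 L genes, 8 and 4 at 1000 detected genes, 0 and 0 without the highest doublet scores, and 0 and 1 both without other-type markers and at 1000 to 6000 UMIs. Leaving out a library gave 1 to 16 higher and 1 to 11 lower. With V-type macrophages as the comparison, chosen after seeing the data, they were 0 and 1, and with M-type 1 and 1. Without nuclei carrying other-type markers the interactions of Fgf13 and Itgbl1 turned to 0.15 and 0.29, while Fgf13 within LAM stayed called (-1.67), and at 1000 to 6000 UMIs that of Tox turned to 0.22.

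Several log2 fold changes in LAM that had not passed changed sign. Without other-type markers Plpp3 was at 0.05, Spp1 at -0.13, Fabp5 at 0.05 and Cd36 at -0.07. Without the highest doublet scores Adora2b was at -0.06, Spp1 at -0.31 and Fabp5 at 0.12. At 1000 to 6000 UMIs Spp1 was at -0.32, Fabp5 at 0.06 and Cd36 at -0.04. Lpl was at 0.01 with 3 L genes, Cd36 at -0.00 with no filter and Spp1 at -0.01 with the block. With a library left out, the values ran from -0.20 to 0.33 for Adora2b, -0.37 to 0.13 for Cd9, -1.91 to 0.88 for Spp1, -0.12 to 0.14 for Lpl, -0.25 to 0.25 for Fabp5, -0.34 to 0.08 for Itgax and down to -0.03 for Cd36. The smallest knockout LAM sum held 381949 UMIs.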
